A study of Caenorhabditis elegans with 4 samples.

Results

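Argonautes are proteins that carry a small RNA and use it to find complementary transcripts, and the 9 genes described here encode some of the Argonautes of the small RNA pathways of the Caenorhabditis elegans germline and of RNA interference: prg-1, csr-1, wago-1, hrde-1, ergo-1, rde-1, alg-3, alg-4 and ppw-1. They were chosen by symbol, as the rows of a gene count table whose WormBase identifier carries one of these names, and all 9 were found among its 20380 genes. Poly(A) RNA was sequenced from whole N2 (wild type) animals grown from the first larval stage (L1) to the fourth (L4) at 20 °C on bacteria that either carried the empty RNAi vector L4440 (mock) or expressed double-stranded RNA against xrn-2, a nuclear exonuclease that degrades RNA from its 5′ end. There were 4 libraries, 2 per condition, numbered as replicates 1 and 2, and neither condition carried any mutation or transgene.

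Some limits of this material bear on every value below. RNAi by feeding acts through the same machinery that some of these genes encode, and both conditions fed on an RNAi vector strain. The xrn-2(RNAi) animals grew more slowly and were cultured for longer before harvest, and per the methods the first pair of libraries was matched in developmental time whereas the second pair came from later in L4 and was matched less closely. The labels call the libraries replicates without saying whether they came from separate cultures, so that p-values measure only the spread between these samples. In RNA from whole animals, fewer germ cells and less RNA per germ cell cannot be told apart.

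In worms a primary Argonaute is guided either by a piRNA (also called a 21U-RNA), by a 26G-RNA made by Dicer and an RNA-dependent RNA polymerase, or by a small interfering RNA cut from double-stranded RNA. Recognition of the target then recruits other RNA-dependent RNA polymerases, which copy the target into abundant secondary 22G-RNAs, and these are loaded into worm-specific Argonautes (WAGO proteins) or into CSR-1. WAGO proteins silence their targets in the cytoplasm or in the nucleus, while CSR-1 is associated with germline transcripts that remain expressed.

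The libraries held between 41105706 and 48451504 reads counted in genes. Levels are given as scaled counts, which are reads scaled so that every library has the same total, and within-pair fold changes are log2 differences of scaled counts after adding 8, which understates changes of weakly expressed genes. On this scale the median of 13967 genes averaging 50 or more scaled counts already stood 0.16 above mock in xrn-2(RNAi) replicate 1 and 0.34 above mock in replicate 2. With TMM scaling, which removes such a shift, the medians were -0.00 and -0.03, so that TMM values are given for every member and for the other genes whose within-pair fold changes are printed. The targeted gene xrn-2 had scaled counts of 4247 and 6192 in the mock libraries and 5265 and 6032 in xrn-2(RNAi) (edgeR log2 fold change -0.13, SE 0.28, adjusted p = 0.897), and its within-pair log2 fold changes were 0.31 and -0.04 (0.14 and -0.41 with TMM scaling). Its poly(A) RNA therefore gave no check of the labels, and xrn-2(RNAi) below means the libraries so labelled. One library stood apart: the summed scaled count of 6 epidermis and cuticle markers was 1332 in mock replicate 2, against 94241 to 335354 in the other libraries. The summed level of 10 oocyte markers was 9214 in mock replicate 1, 49984 in xrn-2(RNAi) replicate 1, 108216 in mock replicate 2 and 135584 in xrn-2(RNAi) replicate 2. All germline, sperm and oocyte markers were detected.

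None of the 9 genes differed between xrn-2(RNAi) and mock in edgeR's quasi-likelihood test, with adjusted p-values between 0.333 and 1.00. The background was the same, since 0 of 16178 genes tested (0%) passed, with 2020 genes at an unadjusted p under 0.05 and a smallest adjusted p of 0.254. An alternative tool, DESeq2, called 17% of all genes and only ppw-1 among the 9 when run on the genes that edgeR tested. Run without a filter on low counts, it called fewer genes in all, 824 in place of 2746, and none of the 9. An exact permutation of 2 libraries against 2 cannot give a two-sided p below 0.333, so single values were not tested in that way.

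The fold changes of the 9 genes depended on the pair. In replicate 1, 8 of the 9 were higher in xrn-2(RNAi) than in mock, with a median log2 fold change of 0.63 against 0.16 over all genes. In replicate 2, 5 of the 9 were higher, with a median of 0.03 against 0.34 over all genes. With TMM scaling the medians of the 9 were 0.46 and -0.34. In all, 4 of the 9 were higher in both pairs, beside 48.5% of all genes (2 of the 9 with TMM scaling, beside 28.7%). Another 4 genes stood higher in the first pair and lower in the second, namely csr-1, wago-1, hrde-1 and alg-3, where 10.1% of all genes did so. With TMM scaling 6 of the 9 did so, against 21.1% of all genes.

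Both xrn-2(RNAi) libraries lay above both mock libraries for 3 genes, prg-1, rde-1 and ppw-1, beside 34.5% of all genes, and with TMM scaling for ppw-1 alone, beside 17.5%. The share of all reads that fell in the 9 genes was 0.157% in mock replicate 1, 0.246% in xrn-2(RNAi) replicate 1, 0.260% in mock replicate 2 and 0.283% in xrn-2(RNAi) replicate 2, so mock replicate 1 was the lowest. Each gene had between 2669 and 32072 reads in a library, which puts the counting error of a single value between 0.558% and 1.94%.

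**Figure D1:**
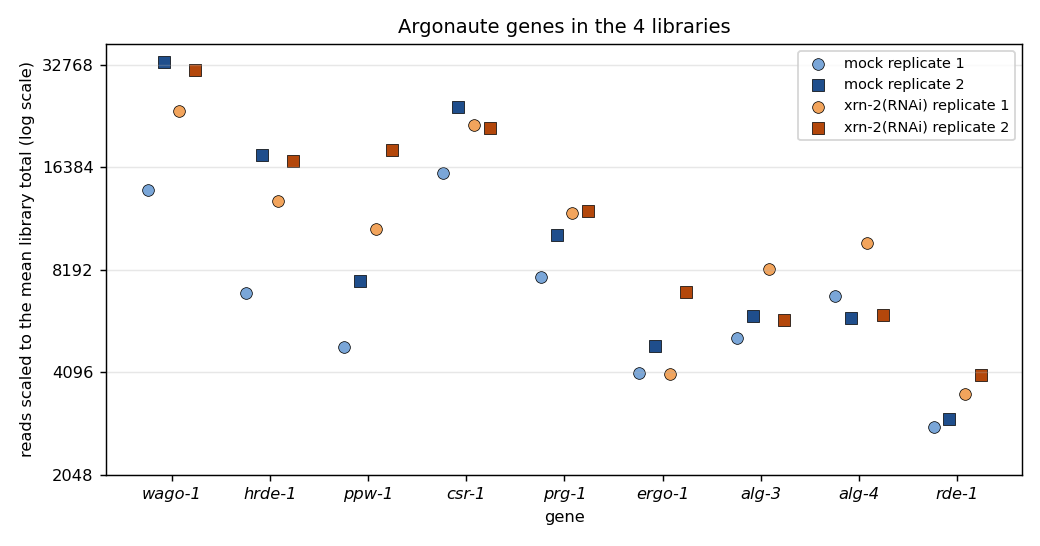
Reads per library scaled to the mean library total (vertical axis, log scale) for the 9 Argonaute genes (horizontal axis). Blue symbols are mock and orange symbols xrn-2(RNAi), with circles for replicate 1 and squares for replicate 2. For ppw-1 the orange symbols at 10766 and 18444 lie above the blue ones at 4863 and 7611, while for wago-1 and hrde-1 both squares lie above both circles.

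ppw-1 had the largest difference between conditions of the 9. It encodes a worm-specific Argonaute of secondary small RNAs that is needed for RNAi of genes expressed in the germline, and its natural loss makes a Hawaiian wild isolate resistant to such RNAi. Its scaled counts were 4863 in mock replicate 1, 10766 in xrn-2(RNAi) replicate 1, 7611 in mock replicate 2 and 18444 in xrn-2(RNAi) replicate 2. Thus each xrn-2(RNAi) library exceeded both mock libraries, and the replicate 2 libraries exceeded the replicate 1 library of their own condition. The fold changes were 2.21 in the first pair and 2.42 in the second, and ppw-1 was the only member at least 2-fold higher in both, beside 6.04% of all genes. No member was at least 2-fold lower in both, beside 2.42% of all genes (3.69% with TMM scaling). With TMM scaling the log2 values were 0.97 and 0.91, short of 2-fold in both pairs, a mark that 4.65% of all genes reached.

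Averaged by condition, ppw-1 stood at 6237 ± 1943 in the mock libraries and 14605 ± 5429 in xrn-2(RNAi) (SD, n = 2 each). The edgeR estimate was a log2 fold change of 0.94 with an SE of 0.26, which did not pass the threshold (adjusted p = 0.333, edgeR). The call depended on the tool and on the filter, since DESeq2 gave an adjusted p of 5.61e-07 for ppw-1 on the genes that edgeR tested and 0.360 without a filter on low counts, at log2 fold changes of 0.94 and 0.93, and the adjusted p ran from 5.61e-07 to 1.00 over all alternatives. With single libraries left out, and no replicate block in those fits, its edgeR log2 fold change lay between 0.52 and 1.35.

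A close paralog of ppw-1 is sago-2, which encodes another worm-specific Argonaute of secondary small RNAs. Scaled counts of sago-2 were 4321, 9652, 5841 and 16462 in mock replicate 1, xrn-2(RNAi) replicate 1, mock replicate 2 and xrn-2(RNAi) replicate 2. The ratio of ppw-1 to sago-2 counts was 1.13, 1.12, 1.30 and 1.12 in the same order, so both genes had nearly the same profile. How reads that match both copies were counted is not given in the sources used here, and the separation of the pair is uncertain. The edgeR log2 fold change of sago-2 was 1.06 (SE 0.26, adjusted p = 0.294), and its within-pair log2 fold changes were 1.16 and 1.49 (0.99 and 1.12 with TMM scaling).

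ppw-1 is the first gene of an annotated operon, a cluster transcribed as a single precursor that is cut into separate mRNAs, and cas-2, a homolog of adenylyl cyclase-associated protein, follows it. cas-2 had scaled counts of 1386 and 2282 in the mock libraries and 2748 and 3837 in xrn-2(RNAi). Its log2 fold changes were 0.98 in replicate 1 and 0.75 in replicate 2 (0.81 and 0.38 with TMM scaling), and the edgeR test did not call it (log2 fold change 0.60, SE 0.25, adjusted p = 0.474). The ratio of ppw-1 to cas-2 counts was 3.51 and 3.34 in the mock libraries and 3.92 and 4.81 in xrn-2(RNAi), so within each pair the first gene of the operon had the larger difference.

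wago-1 and hrde-1 encode WAGO proteins of the germline. WAGO-1 acts in the cytoplasm and is found in P granules, the RNA-rich bodies around germ cell nuclei, and HRDE-1 acts in the nucleus and is needed for silencing to pass between generations. wago-1 had 14082 scaled counts in mock replicate 1, 24064 in xrn-2(RNAi) replicate 1, 33387 in mock replicate 2 and 31733 in xrn-2(RNAi) replicate 2. hrde-1 had 7005, 13024, 17853 and 17167 in the same order. In both genes mock replicate 1 was the lowest library, and the 2 libraries of replicate 2 lay above both libraries of replicate 1. On this scale the replicate 2 libraries were close together, but with TMM scaling mock exceeded xrn-2(RNAi) there, at 38369 and 28196 for wago-1 and 20517 and 15254 for hrde-1.

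The within-pair log2 fold changes were 0.77 and -0.07 for wago-1 and 0.89 and -0.06 for hrde-1, and with TMM scaling they were 0.60 and -0.44 for wago-1 and 0.72 and -0.43 for hrde-1. Neither gene differed between conditions in edgeR (wago-1 log2 fold change 0.08, SE 0.42, adjusted p = 0.965; hrde-1 0.15, SE 0.42, adjusted p = 0.930). The difference between the mock libraries was larger than either pair's, at 1.24 for wago-1 and 1.35 for hrde-1 on the log2 scale. These were the only members at least 2-fold higher in mock replicate 2 than in mock replicate 1, beside 9.48% of all genes. In the replicate term of the same fit, which sets replicate 2 against replicate 1, their log2 differences were 0.83 and 0.88 (both SE 0.42), with edgeR adjusted p-values of 0.529 and 0.526, and 0 of 16178 genes passed (1506 at an unadjusted p under 0.05).

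Both genes held a near constant ratio to each other. wago-1 counts divided by hrde-1 counts came to 2.01 in mock replicate 1, 1.85 in xrn-2(RNAi) replicate 1, 1.87 in mock replicate 2 and 1.85 in xrn-2(RNAi) replicate 2, although the genes lie on chromosomes I and III. Their centred log2 profiles differed by a root mean square of 0.0504, the smallest among the 9 genes. Germline markers moved with them: the summed scaled count of 12 such genes was 71216, 120604, 144006 and 149961 in the order used above, and 8 of the 12 had both replicate 2 libraries above both replicate 1 libraries, as had 3 of the 9 Argonaute genes and 16.2% of all genes. The part of germline amount in these profiles was not tested.

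prg-1 and csr-1 encode the other broadly expressed germline Argonautes of the set. PRG-1 is the Piwi protein that binds piRNAs, and CSR-1 is an essential Argonaute with slicing activity that is loaded with 22G-RNAs against many germline transcripts. prg-1 had scaled counts of 7796 and 10404 in the mock libraries and 12038 and 12176 in xrn-2(RNAi), so that the conditions did not overlap, and the 2 xrn-2(RNAi) libraries were nearly equal. Its log2 fold changes were 0.63 and 0.23, and with TMM scaling 0.46 and -0.14, where the conditions overlapped. The edgeR estimate for prg-1 was 0.16 (SE 0.31, adjusted p = 0.892).

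A close copy of prg-1, prg-2, is annotated as a pseudogene and was counted at a similar level. Its scaled counts were 5370 in mock replicate 1, 10890 in xrn-2(RNAi) replicate 1, 14279 in mock replicate 2 and 13413 in xrn-2(RNAi) replicate 2. On this scale mock replicate 2 was the highest library of prg-2 but not of prg-1, whereas with TMM scaling it was the highest of both. The ratio of prg-1 to prg-2 counts was 1.45, 1.11, 0.729 and 0.908 in that order. The log2 fold changes of prg-2 were 1.02 and -0.09 (0.85 and -0.46 with TMM scaling), and edgeR gave 0.19 (SE 0.44, adjusted p = 0.913). How reads shared by the copies were counted is not given in the sources used here, and the split between them is uncertain.

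csr-1 had scaled counts of 15749 in mock replicate 1, 21799 in xrn-2(RNAi) replicate 1, 24719 in mock replicate 2 and 21400 in xrn-2(RNAi) replicate 2. Both xrn-2(RNAi) values lay between the mock values, and the log2 fold changes were 0.47 and -0.21 (0.30 and -0.58 with TMM scaling). The edgeR log2 fold change of csr-1 was -0.14 (SE 0.38, adjusted p = 0.926), and it was 0.13 with total-count scaling. In the annotation, 438 bases (11.9%) of the csr-1 exons are shared on the same strand with frpr-10, which had 16 to 41 reads per library. On the opposite strand, prg-1 shares 12 exon bases with D2030.12 and ergo-1 shares 17 with pei-2. The ratio of csr-1 to prg-1 counts ranged from 1.76 in xrn-2(RNAi) replicate 2 to 2.38 in mock replicate 2.

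Of the 11 piRNA cofactors listed, 0 passed in edgeR (0 at an unadjusted p under 0.05) and 0 in DESeq2, and their median log2 fold change was 0.21 against 0.05 over all genes. henn-1, the methyltransferase that modifies piRNAs at their 3′ end, had 1793 and 2119 scaled counts in the mock libraries and 2628 and 2815 in xrn-2(RNAi) (edgeR log2 fold change 0.21, SE 0.24, adjusted p = 0.810). Among the cofactors of CSR-1, the germline RNA-dependent RNA polymerase gene ego-1 had 3533, 7813, 5786 and 10091 scaled counts in mock replicate 1, xrn-2(RNAi) replicate 1, mock replicate 2 and xrn-2(RNAi) replicate 2. Each xrn-2(RNAi) library of ego-1 lay above both mock libraries, and edgeR did not call it (log2 fold change 0.70, SE 0.28, adjusted p = 0.451), whereas DESeq2 did (adjusted p = 0.0370). The helicase gene drh-3 and the Tudor domain gene ekl-1, which act beside ego-1, had edgeR log2 fold changes of -0.08 and 0.33 (adjusted p = 0.942 and 0.661).

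**Figure D2:**
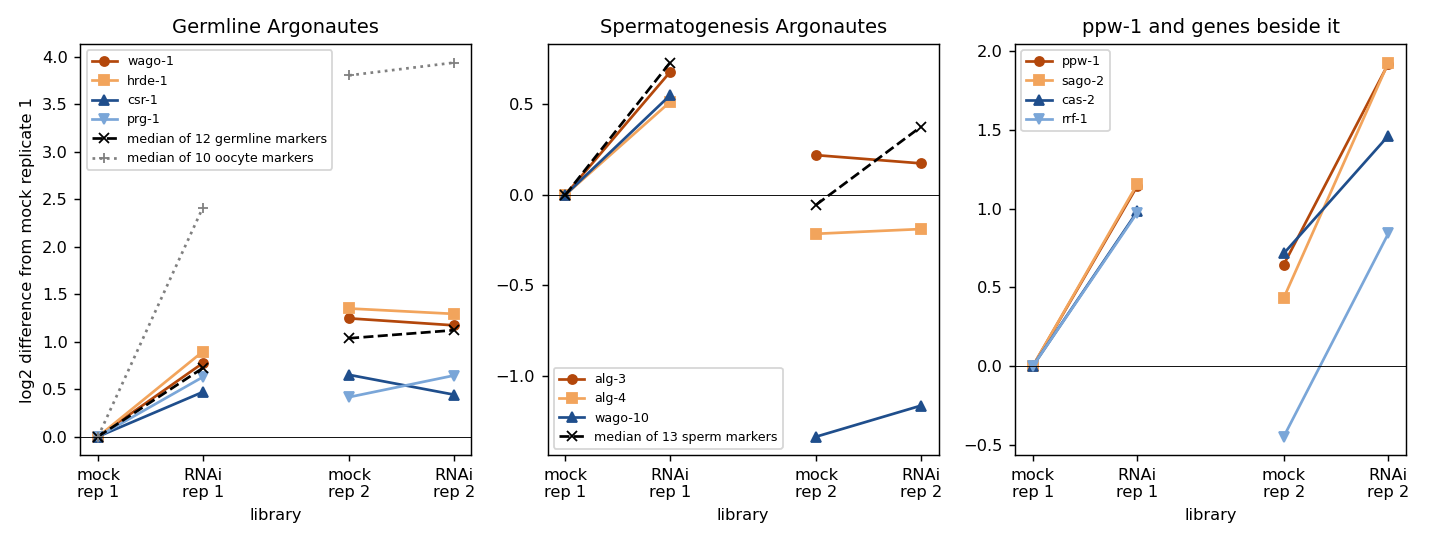
Log2 difference of scaled counts from mock replicate 1 (vertical axis) in the 4 libraries, with lines joining the libraries of a replicate. The left plot shows germline Argonautes with the medians of 12 germline and 10 oocyte markers, the middle plot alg-3, alg-4 and wago-10 with the median of 13 sperm markers, and the right plot ppw-1 with sago-2, cas-2 and rrf-1; each plot has its own scale. wago-1 and hrde-1 run beside the germline markers, which reach 1.04 in mock replicate 2, and ppw-1 and sago-2 reach 1.92 and 1.93 in xrn-2(RNAi) replicate 2.

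The 26G-RNA pathways are represented by 3 genes. ERGO-1 binds the 26G-RNAs of oocytes and embryos, whereas ALG-3 and ALG-4 bind those of the male germline and are needed for normal sperm. alg-3 had scaled counts of 5165 in mock replicate 1, 8268 in xrn-2(RNAi) replicate 1, 6013 in mock replicate 2 and 5827 in xrn-2(RNAi) replicate 2. alg-4 had 6862, 9796, 5910 and 6017 in the same order. For both genes xrn-2(RNAi) replicate 1 was the highest library, and on this scale the replicate 2 libraries were close to each other. With TMM scaling mock replicate 2 and xrn-2(RNAi) replicate 2 were farther apart, at 6910 and 5177 for alg-3 and 6792 and 5347 for alg-4.

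The log2 fold changes were 0.68 and -0.05 for alg-3 and 0.51 and 0.03 for alg-4 (with TMM scaling 0.51 and -0.42, and 0.34 and -0.34), and edgeR gave 0.05 (SE 0.34, adjusted p = 0.979) and -0.00 (SE 0.30, adjusted p = 1.00). Summed over 13 sperm markers, scaled counts were 20674, 36202, 28374 and 33886 in the same order, so the sum was also highest in xrn-2(RNAi) replicate 1. Single markers varied, and 4 of the 13 were higher in xrn-2(RNAi) replicate 2 than in xrn-2(RNAi) replicate 1. The sum was higher in mock replicate 2 than in mock replicate 1, but only 6 of the 13 markers were (median log2 difference -0.05). With TMM scaling 8 of the 13 were (median 0.05). The median within-pair log2 fold changes of the markers were 0.73 and 0.17, but 0.56 and -0.20 with TMM scaling. In the second pair 10 of the 13 were higher in xrn-2(RNAi), and 3 of the 13 with TMM scaling. The part of sperm amount was not tested. Within that list 2 genes were at least 2-fold higher in both pairs, spe-49 and try-5, beside 6.04% of all genes (with TMM scaling 1, try-5, beside 4.65%), the latter a protease of male seminal fluid rather than a sperm protein, and both were singled out after their values were seen. The ratio of alg-3 to alg-4 counts was 0.753 and 0.844 in replicate 1 and 1.02 and 0.968 in replicate 2, so that the genes were closer to equal in the second pair. They are close copies of each other, on chromosomes IV and III, and how shared reads were counted is not given in the sources used here.

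ergo-1 departed from this course. Its scaled counts were 4077 in mock replicate 1, 4056 in xrn-2(RNAi) replicate 1, 4885 in mock replicate 2 and 7032 in xrn-2(RNAi) replicate 2, so that the last library alone stood high on this scale. The log2 fold changes were -0.01 and 0.52, but -0.18 and 0.15 with TMM scaling, and edgeR gave -0.01 for the condition (SE 0.25, adjusted p = 0.992) and 0.53 for replicate 2 over replicate 1 (SE 0.25, adjusted p = 0.522). DESeq2 called that replicate difference (adjusted p = 0.0372) on the genes that edgeR tested but not without a filter on low counts (adjusted p = 0.837). Among the 9 genes the first of these runs called 2 higher in replicate 2, ergo-1 and ppw-1, and 0 lower, beside 8% of all genes called higher, 6.84% called lower and 14.8% in either direction.

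Among the 9 listed cofactors of Dicer and the 26G pathway, 0 passed in edgeR, and 1, eri-5, passed in DESeq2. eri-5, whose Tudor domain protein links Dicer to the polymerase RRF-3, had 312 and 594 scaled counts in the mock libraries and 763 and 1231 in xrn-2(RNAi), with log2 fold changes of 1.27 and 1.04, or 1.10 and 0.67 with TMM scaling (edgeR log2 fold change 0.90, SE 0.33, adjusted p = 0.424). rrf-3 itself and the exonuclease gene eri-1 had smaller values (edgeR log2 fold changes 0.07 for both, adjusted p = 0.955 and 0.946). The Dicer gene, dcr-1, had an edgeR log2 fold change of 0.15 (SE 0.24, adjusted p = 0.860).

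rde-1 encodes the Argonaute that receives small interfering RNAs cut from fed double-stranded RNA, and without it the animals do not respond to feeding RNAi. Its scaled counts were 2839 and 2993 in the mock libraries and 3526 and 4019 in xrn-2(RNAi), and the conditions did not overlap on this scale, though they did with TMM scaling. The log2 fold changes of 0.31 and 0.42 lay near the medians of all genes, and with TMM scaling they were 0.14 and 0.05. The edgeR estimate for rde-1 was 0.10 (SE 0.23, adjusted p = 0.913). rde-1 is the first gene of an operon with C27H6.8, which had 5803 and 5013 scaled counts in the mock libraries and 5588 and 6187 in xrn-2(RNAi). The double-stranded RNA binding partner of RDE-1, rde-4, had an edgeR log2 fold change of 0.10 (SE 0.26, adjusted p = 0.920).

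Secondary small RNAs in the RNAi response are made by polymerases in Mutator foci. Of the 12 listed Mutator genes 0 passed in edgeR, with a median log2 fold change of 0.26, and DESeq2 called rrf-1 alone. rrf-1, an RNA-dependent RNA polymerase of this pathway, is annotated as the second gene of an operon whose first gene is ego-1. rrf-1 had scaled counts of 3079 and 2257 in the mock libraries and 6063 and 5530 in xrn-2(RNAi). Its xrn-2(RNAi) libraries both lay well above the mock libraries, with log2 fold changes of 0.98 and 1.29 (0.81 and 0.92 with TMM scaling) and an edgeR estimate of 0.86 (SE 0.23, adjusted p = 0.319). mut-16, the scaffold of the foci, had an edgeR log2 fold change of -0.06 (SE 0.28, adjusted p = 0.959). The nuclear RNAi genes nrde-1, nrde-2 and nrde-4, which act downstream of HRDE-1, had values of 0.31, -0.21 and 0.02 (edgeR adjusted p = 0.710, 0.814 and 0.986).

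All 14 other Argonaute genes listed were found in the table, of which 3 (prg-2, wago-2 and wago-11) are annotated as pseudogenes in RefSeq and were matched through their locus tags. The cofactor cde-1 was not analysed here. None of the 14 passed in edgeR (1 at an unadjusted p under 0.05), and DESeq2 called sago-2 and ppw-2. ppw-2, which encodes a germline WAGO protein, had 6976 and 7794 scaled counts in the mock libraries and 12558 and 14320 in xrn-2(RNAi), and its log2 fold changes were 0.85 and 0.88, or 0.68 and 0.51 with TMM scaling (edgeR log2 fold change 0.59, SE 0.26, adjusted p = 0.491). vsra-1 had 1563, 2298 and 1484 scaled counts in mock replicate 1, xrn-2(RNAi) replicate 1 and mock replicate 2, and 9768 in xrn-2(RNAi) replicate 2. Its within-pair log2 fold changes were 0.55 and 2.71 (0.38 and 2.34 with TMM scaling), so that the size of its difference rested mostly on a single library. wago-10, a WAGO gene of spermatogenesis, had 2420 and 3545 scaled counts in replicate 1 and 954 and 1075 in replicate 2 (edgeR replicate term -1.53, SE 0.28, adjusted p = 0.520). On the genes that edgeR tested, DESeq2 did call that replicate difference (adjusted p = 4.54e-06). In the DESeq2 replicate term 3 of the 14 were called higher in replicate 2 (sago-2, wago-4 and alg-5) and 1 lower, beside 8% and 6.84% of all genes.

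Several Argonaute genes outside the set were also lowest in mock replicate 1, among them wago-4, alg-5, prg-2, wago-2 and wago-5. The share of all genes lowest in that library was not counted. In the first pair 10 of the 14 were higher in xrn-2(RNAi), beside 8185 of 13967 genes. wago-4, needed for inherited silencing, had 2815, 6316, 7544 and 9386 scaled counts in mock replicate 1, xrn-2(RNAi) replicate 1, mock replicate 2 and xrn-2(RNAi) replicate 2, and alg-5, a germline microRNA Argonaute, had 907, 2416, 3231 and 3863. The microRNA Argonaute gene alg-1 went the other way in the first pair, with 8729 and 6019 scaled counts in replicate 1 and 4619 and 6768 in replicate 2. So did nrde-3, with 998 and 688 in replicate 1 and 560 and 1010 in replicate 2. sago-1 (4056 and 3986 in replicate 1, 3493 and 5943 in replicate 2) and wago-11 were also lower in xrn-2(RNAi) of the first pair. wago-2 had 3037, 6765, 7134 and 5215 scaled counts in the order of wago-4, and wago-5 had 264, 445, 612 and 563. wago-11 had only 25 to 103 reads per library. Over all 61 measured genes of the other Argonautes and cofactors, edgeR called 0 (2 at an unadjusted p under 0.05), and DESeq2 called 5 higher (sago-2, ppw-2, ego-1, eri-5 and rrf-1) and 0 lower, beside 8.07% of all genes called higher and 8.9% lower. Of these, ego-1 and rrf-1 belong to the same annotated operon, and eri-5 is the second gene of another operon. The ratio of ego-1 to rrf-1 counts was 1.15, 1.29, 2.56 and 1.82 in the order of wago-4. Whether the differences of ego-1 and rrf-1 are separate cases was not tested. Without a filter on low counts DESeq2 called 0 of the 61, and 824 genes in all.

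Per kilobase of annotated exon, wago-1 was the most abundant of the 9 mRNAs and rde-1 the least in every library. The mean scaled counts per kilobase over the 4 libraries were 8451 for wago-1, 5702 for csr-1, 3977 for prg-1, 3891 for hrde-1 and 3355 for ppw-1. They were 2064 for alg-4, 1929 for alg-3, 1371 for ergo-1 and 1039 for rde-1. The ranges over libraries overlapped for all 8 pairs of neighbours in this order, and for 7 with TMM scaling, where csr-1 and prg-1 did not overlap, and wago-1 exceeded csr-1, csr-1 exceeded prg-1 and ergo-1 exceeded rde-1 in all 4 libraries. ppw-1 had the most variable place, being 7th of the 9 in mock replicate 1, 5th in xrn-2(RNAi) replicate 1 and mock replicate 2, and 2nd in xrn-2(RNAi) replicate 2. By mean scaled count, not corrected for length, the 9 genes lay between the 86.7 and 98.8 percentile of all genes.

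**Figure D3:**
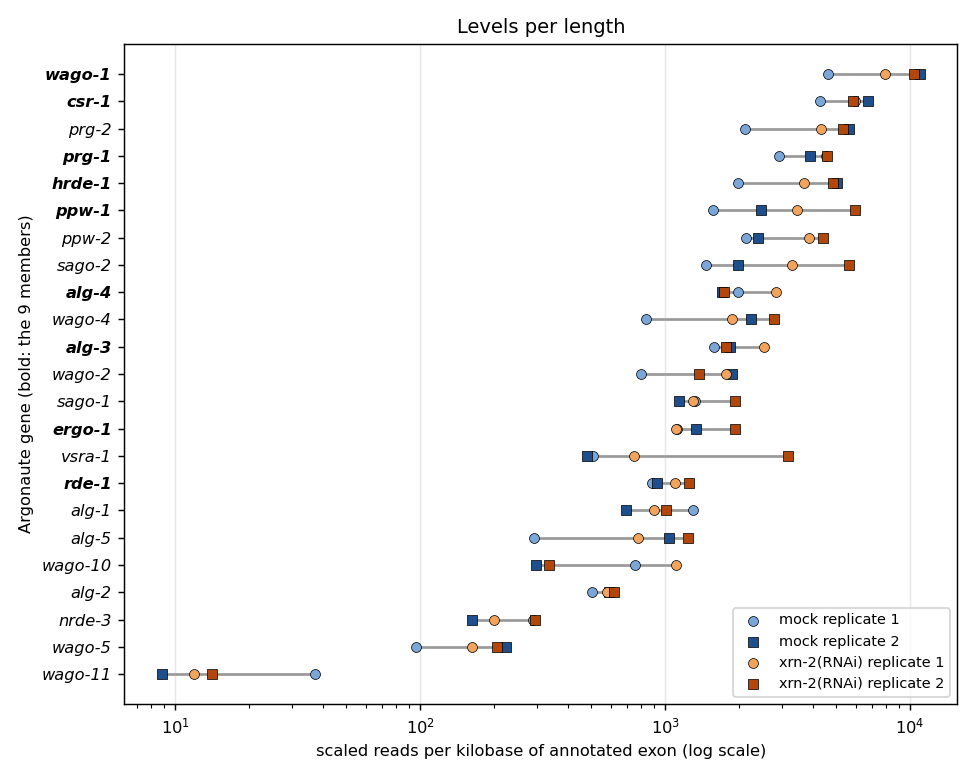
Scaled reads per kilobase of annotated exon (horizontal axis, log scale) for the 9 Argonaute genes, in bold, and 14 other Argonaute genes, ordered by their mean. Symbols are single libraries (blue mock, orange xrn-2(RNAi), circles replicate 1, squares replicate 2) and grey lines the range. The means run from 8451 for wago-1 to 1039 for rde-1 within the set.

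The genes with the most similar profiles were found as those with the smallest root mean square difference of centred log2 values over the 4 libraries, among 13966 genes. With so few libraries such likeness is a description. For ppw-1 the nearest genes were F26F12.3 (0.0273), B0304.4, T28B11.1, ugt-29 and ikke-1, sago-2 was the 19th, and the nearest member, prg-1, lay at 0.482, farther than for any other member. For wago-1 the nearest were B0001.7, wago-5, hpo-40, T08D2.5 and the major sperm protein gene msp-50. For hrde-1 they were msp-45, hpo-40, F35D11.3, Y43D4A.1 and prg-2. For alg-3 the nearest were F59A3.8, F53C3.1, clec-119, Y57A10B.7 and T22A3.6, and for alg-4 they included W03B1.3, best-25, F14F7.4 and R01H2.4, while alg-3 and alg-4 were each other's nearest member at 0.170.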

How the data were processed

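The authors aligned reads to the ce10 assembly with qAlign of QuasR (spliced alignment) and deposited counts of reads overlapping the annotated exons of each WormBase gene. Whether strand was used is not given in the sources used here. Counts were tested in R 4.3.3 with edgeR 4.0.16 (quasi-likelihood, TMM, filterByExpr, replicate number and condition as terms), with Benjamini-Hochberg adjustment over 16178 genes and calls under 0.05. SEs were taken from the fold change and its F statistic. The edgeR step was run on simulated data as a check of the code, and its power to detect changes in these data is not reported here. DESeq2 1.42.0 was an alternative, and the others were RLE and total-count scaling, no filter on low counts, no block, single libraries left out and a pseudocount of 1 in place of 8. Fits with a library left out had condition or replicate as their only term. Within-pair fold changes and levels had no test. Exon lengths came from the WBcel235 annotation, another build than ce10, so no coordinates are given. Named genes were the members, their operon partners, fixed partners by role, the other Argonautes, defining markers, xrn-2 and the 5 nearest profiles per member, save unnamed identifiers. Symbols came from a table of WormBase names and, for 3 pseudogenes, from RefSeq (WBcel235). Members and lists were chosen with earlier results of these data known. Library totals are given in the text, and 1046 genes had no read.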

Additional observations from a re-analysis of the deposited data

How the results depend on the processing

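The number of genes called between conditions was 0 in edgeR under every scaling, filter and library set tried, but 2746 with DESeq2 and 824 with DESeq2 without a filter on low counts, an alternative chosen after seeing the data. For replicate 2 against replicate 1 the count was 0 in edgeR, 2400 with DESeq2 and 941 with DESeq2 without a filter, and leaving out single libraries gave 0 to 668, the latter without xrn-2(RNAi) replicate 2. Without the replicate block 0 genes passed between conditions (1644 at an unadjusted p under 0.05), and deviations of same-numbered libraries correlated at r = 0.57 over 16178 genes. The labels do not say what the replicate number marks. Fits with a single library left out also dropped the other term of the model, so library and model changed together.

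Members at least 2-fold higher in both pairs went from 1 to 0 with TMM scaling and to 0 with DESeq2 size factors. In the lists of other Argonautes and cofactors the genes called went from 0 to 5 with DESeq2 and stayed at 0 with DESeq2 without a filter, and those at least 2-fold higher in both pairs from 2 to 0 with TMM scaling. The share of all genes at least 2-fold higher in both pairs went from 6.04% to 4.65% with TMM scaling. Small condition estimates changed sign. With total-count scaling the log2 fold change was 0.13 for csr-1, 0.26 for ergo-1 and 0.27 for alg-4. Without the replicate block it was -0.0659 for wago-1, -0.0202 for hrde-1, 0.0184 for ergo-1 and 0.0521 for alg-4, and for alg-4 it was 0.00111 with DESeq2 and 0.000955 with RLE scaling. The condition fits with single libraries left out also had no replicate block. Their ranges were -0.11 to 0.41 for prg-1, -0.52 to 0.23 for csr-1, -0.60 to 0.75 for wago-1, -0.58 to 0.88 for hrde-1, -0.40 to 0.29 for ergo-1, -0.30 to 0.31 for alg-3 and -0.43 to 0.37 for alg-4. Within them the sign also turned without xrn-2(RNAi) replicate 2 for wago-1 (-0.26) and hrde-1 (-0.22), without mock replicate 2 for ergo-1 (0.20), and without mock replicate 1 for alg-3 (-0.0914) and alg-4 (0.10). For the replicate term, fitted there without the condition term, the ranges were -0.0106 to 0.48 for prg-1 and -0.38 to 0.16 for alg-3 (0.10 without xrn-2(RNAi) replicate 2). The cause of these changes was not tested. In all, 68 of 90 condition values of members kept direction and side of the threshold, as did 76 of 81 replicate values. Only DESeq2 brought members past the threshold, ppw-1 for both terms and ergo-1 for the replicate term, and without a filter it brought none (adjusted p = 0.360 and 0.620 for ppw-1 and 0.837 for ergo-1). With 2 libraries per condition the precision rests on the spread between libraries, while the counting error of a member was at most 1.94% in a library.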
